A study of Mus musculus with 168 samples.

Results

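The genes of voltage-gated sodium and calcium channels were followed in 6 populations of mouse neurons taken at 3 ages from control mice and from littermates that model spinal muscular atrophy (SMA). Members were all rows of the expression table whose symbol starts with Cacna, Cacnb or Cacng, or with Scn and a digit, which gave 41 of 39410 rows. They comprise 11 rows for sodium channel alpha subunits, 4 for sodium channel beta subunits, 4 for L-type, 3 for P/Q-, N- and R-type and 3 for T-type calcium channel alpha1 subunits, 4 for alpha2delta, 4 for beta and 8 for gamma subunits. The rows were selected on their symbols, and the group was chosen by 1 measured result already known, the RPKM of Scn3b in SMA and control neurons at day 10. That contrast, and every other that uses samples of day 10, is therefore given for Scn3b as a description without a test, and Scn3b is left out of the counts of members in those comparisons.

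Voltage-gated channels open when the membrane depolarises. A single large alpha (sodium) or alpha1 (calcium) protein forms the pore and senses voltage, and smaller partners set how much channel reaches the membrane and how fast it opens and closes. Sodium channels start and carry the action potential, calcium channels of the P/Q and N type trigger transmitter release, and T-type and L-type channels shape firing. In neurons of the brain and spinal cord Scn3a is known as an early form, and Scn8a as the form that gathers at the axon initial segment and the nodes of Ranvier of mature axons. Most gamma subunits are better known as partners of AMPA-type glutamate receptors than of calcium channels.

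Neurons were cut by laser from frozen, quickly stained sections, about 150 cells to a tube, and polyA RNA was made into Smart-seq2 libraries. SMA mice were Smn-/-/SMN2+/+/SMN∆7+/+ and controls Smn+/+/SMN2+/+/SMN∆7+/+, so that animals of both genotypes carried the human SMN2 gene and the SMN∆7 transgene and differed in mouse Smn. Mice were taken at postnatal days 2, 5 and 10, which the submitters describe as stages before symptoms, early and late in disease. Motor neurons came from the ocular (oculomotor and trochlear), facial, vagus and hypoglossal nuclei and the lumbar spinal cord, and the red nucleus gave neurons that are not motor neurons. Some ocular libraries hold the cells of a single nucleus of the pair. The 168 libraries came from 34 mice and formed 160 samples of 1 mouse and 1 population, 72 control and 88 SMA, in 36 groups of 3 to 7 mice. Most mice gave samples to several populations, so the populations are not independent sets of animals.

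Values are RPKM, which divides a gene's reads by its length and by the depth of the library, and differences are on the log2(RPKM + 1) scale, which understates the change of low genes. Depth recovered from the table ran from 0.342 to 16.3 M reads with a median of 5.89 M, and 2 libraries held under 2 M. Mouse Smn1 averaged 26.7 ± 12.6 RPKM in control samples (SD, n = 72) and was at 0 in 70 of 88 SMA samples, with at most 4.24 in the others. Chat, which makes acetylcholine, averaged between 20.2 and 33.9 RPKM in the motor populations of controls and 0.176 in the red nucleus, where the red nucleus factor Pou4f1 ran from 77.7 to 528 (n = 11). Transcripts of 4 hypothalamic peptides (Hcrt, Pmch, Avp, Oxt) summed to between 288 and 837 RPKM in the facial, hypoglossal, lumbar and vagus samples of control mice 240 and 244 at day 2, against at most 22.9 in every other control sample of that age. Of the 60 calls of change from day 2 to day 10 in controls described below, 19 were lost without these 2 mice, and each such loss is given beside the genes named. Fewer cells of a type and less RNA per cell cannot be told apart in such pooled samples.

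The stretches before the start sites are shown for 4 of the genes on which the age results turn, 2 that were higher and 2 that were lower at day 10. Scn2b and Scn4b, the higher pair, lie side by side on chromosome 9, and Scn9a and Cacna2d1 were the lower pair. Each line gives the 250 bases before the RefSeq start site (GRCm38.p6), 5′ to 3′ on the strand of the gene, with every CG dinucleotide in capitals. The stretches are chr9:45117626-45117875 (plus strand), chr9:45138374-45138623 (plus), chr2:66634963-66635212 (minus) and chr5:15934441-15934690 (plus).
Scn2b: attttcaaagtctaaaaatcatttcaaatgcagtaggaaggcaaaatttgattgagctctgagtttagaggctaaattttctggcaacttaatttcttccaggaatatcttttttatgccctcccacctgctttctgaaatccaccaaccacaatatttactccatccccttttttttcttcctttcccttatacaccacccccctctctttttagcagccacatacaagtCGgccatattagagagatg
Scn4b: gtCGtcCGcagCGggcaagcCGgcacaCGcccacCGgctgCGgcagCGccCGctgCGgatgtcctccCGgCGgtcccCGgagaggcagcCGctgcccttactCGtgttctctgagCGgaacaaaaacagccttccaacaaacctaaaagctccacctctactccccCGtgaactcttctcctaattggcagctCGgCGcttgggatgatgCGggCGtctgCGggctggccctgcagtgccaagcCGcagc
Scn9a: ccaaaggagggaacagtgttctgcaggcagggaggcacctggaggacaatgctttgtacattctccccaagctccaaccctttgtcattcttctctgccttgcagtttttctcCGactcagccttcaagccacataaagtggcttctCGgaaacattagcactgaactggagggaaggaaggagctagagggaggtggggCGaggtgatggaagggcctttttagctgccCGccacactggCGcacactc
Cacna2d1: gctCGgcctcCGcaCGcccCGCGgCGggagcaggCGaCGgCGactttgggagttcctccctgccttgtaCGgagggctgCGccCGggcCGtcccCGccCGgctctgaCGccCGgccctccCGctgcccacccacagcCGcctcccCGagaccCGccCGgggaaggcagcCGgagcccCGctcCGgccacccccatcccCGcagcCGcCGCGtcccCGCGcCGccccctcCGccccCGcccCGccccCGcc
They held 1, 23, 5 and 36 CG dinucleotides in that order. At least 1 CG is found in 92.1% of the 32851 such stretches from RefSeq, and the median count is 6. Fewer CG than in the Scn2b stretch were found in 7.87% of all stretches, and fewer than in the Scn4b stretch in 86.7%. The neighbouring pair thus differed widely in this respect. In the GENCODE annotation Scn2b starts at 45117782 and Scn4b at 45138395, inside these stretches. Parts of both stretches therefore lie within the gene by that annotation. The box GGGCGG, searched on both strands, was found in the Cacna2d1 stretch and in none of the other 3, and it is in 32.7% of all stretches. CCAAT was found in the Scn4b stretch alone (33.8% of all), and TATAAA in none of the 4 (12.4% of all). A match describes these letters only and is not a binding site. Stretches were found for 30 of 40 member symbols, and those not found include Scn3b, Scn3a, Cacna1a, Cacna1g, Cacna1h, Cacna2d4, Cacng1 and Cacng4.

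Channel gene expression in these neurons was uneven, and 20 of the 41 rows averaged 10 RPKM or more over the control samples. The filter for testing (at least 1 RPKM in as many samples as the smallest group holds) was passed in all 6 populations by 27 rows, in some by 8 and in none by 6. Among pore-forming sodium channel genes 5 carried nearly all of the signal. In controls (n = 72 samples) Scn9a averaged 48.3 ± 30.6 RPKM, Scn8a 40.5 ± 20.6, Scn1a 24.1 ± 12.3, Scn2a1 23.3 ± 8.27 and Scn3a 18.2 ± 10.6. The spread of each was wide enough that neighbours in this order overlapped. Rows that passed no filter included the 2 rows of the muscle channel Scn4a (Scn4a_ann1 and Scn4a_ann2), the sensory neuron channel Scn10a, Cacng6 and Cacna2d4. Scn4a_ann2 was listed at 0 in every sample.

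Sodium beta subunit genes differed widely in level per length. Scn2b, whose protein is bound to the pore by a disulphide bridge, had the highest mean of all members at 249.9 ± 152.5 RPKM. Scn3b averaged 41.79 ± 34.96 and Scn4b, linked to resurgent sodium current, 13.9 ± 18.8.

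Of the calcium channel pores, Cacna1a (P/Q type, 18.4 ± 5.82 RPKM) and Cacna1b (N type, 16.8 ± 8.90) stood well above the others. The T-type genes Cacna1g and Cacna1h averaged 7.14 ± 3.71 and 2.30 ± 1.29. The L-type genes Cacna1d and Cacna1c averaged 1.60 ± 1.04 and 0.957 ± 0.704. The muscle gene Cacna1s was at 0 in 145 of 160 samples and the retinal gene Cacna1f in 110. Among accessory genes the highest means were Cacna2d1 (28.2 ± 26.5) and Cacna2d3 (24.7 ± 13.5) for alpha2delta subunits, which traffic the channel to the surface, and Cacnb3 (20.5 ± 11.5) and Cacnb1 (19.6 ± 7.04) for the intracellular beta subunits. Cacng2, the AMPA receptor partner stargazin, led the gamma genes with 32.3 ± 16.7, followed by Cacng3 with 24.4 ± 13.9.

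**Figure D1:**
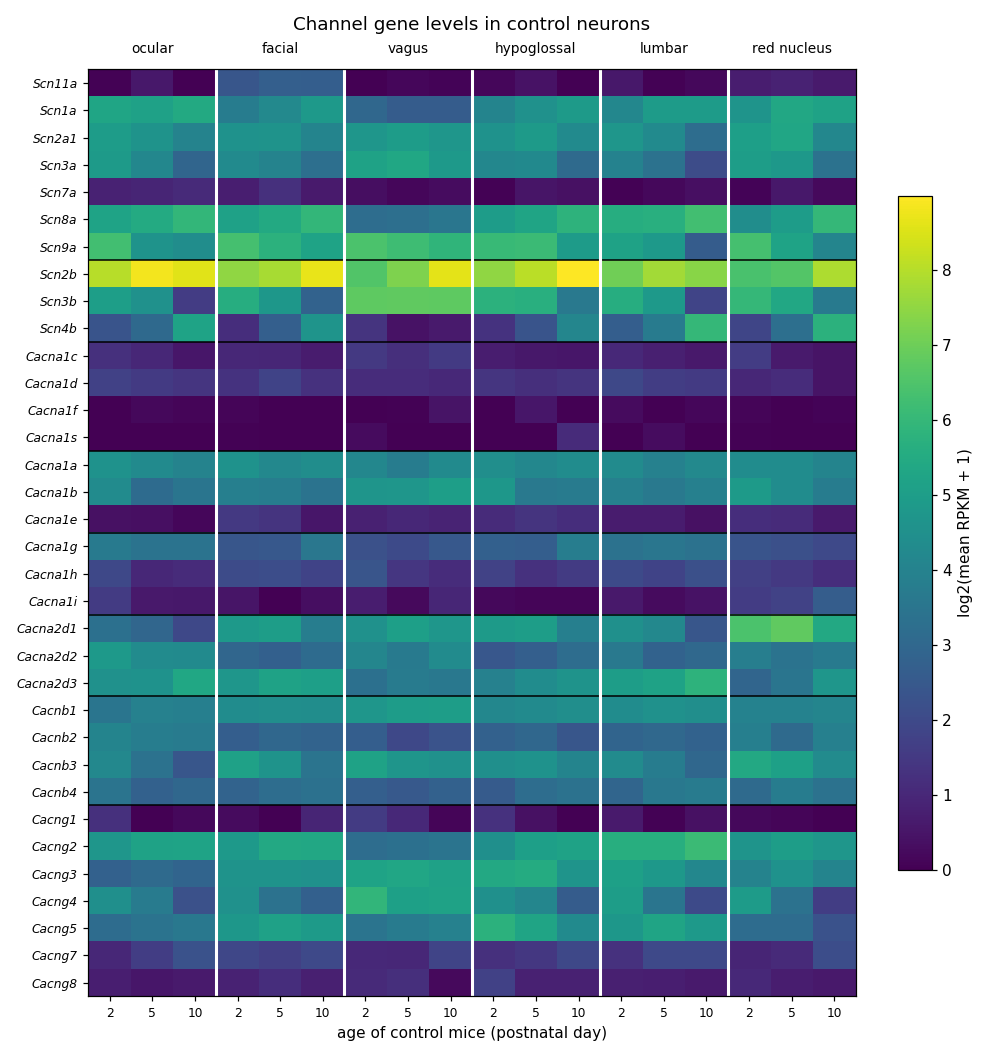
Mean level of channel genes that passed the filter in at least 1 population (rows, by subunit class) in control neurons of 6 populations at days 2, 5 and 10 (columns), as log2(mean RPKM + 1). The row that is brightest on average is Scn2b, and vagus neurons stand apart through a bright Scn3b row and dark Scn4b, Scn8a and Scn1a rows.

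The heat map of control levels shows that each population had its own set of high and low subunit genes. Over the 3 ages 28 of the 32 members tested differed between populations in an F test (limma, adjusted p under 0.05), against 44.5% of all genes. The 4 that did not pass were Cacna1a (adjusted p = 0.629), Cacng8 (0.539), Cacng1 (0.715) and Cacng7 (0.247). Each population was then set against the mean of the other 5. Vagus neurons had the most members past the threshold, 11 higher and 11 lower of 32, where 27.7% of all genes passed. Lumbar neurons had 11 higher and 8 lower (18.4% of all genes), ocular neurons 9 and 8 (17.7%), red nucleus neurons 8 and 6 (21.9%), facial neurons 7 and 3 (9.27%) and hypoglossal neurons 4 and 4 (10.8%). Results of this kind name at most 2 genes per direction and population, those with the largest differences.

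In vagus neurons Scn3b ran from 72.2 to 132.3 RPKM over 11 control samples (median 108.3), and in the 61 samples of the other populations from 0.563 to 87.9 (median 29.0). The log2 difference was 2.36 ± 0.15 (SE). The Scn3b ranges overlapped only slightly. Scn4b was lower in vagus neurons (log2 -2.63 ± 0.16, limma, adjusted p = 3.91e-22), with a highest value of 3.81 RPKM. For Scn4b, 3 reads correspond to 0.103 RPKM at the median depth, which is the level below which a 0 cannot be read as absence. Cacng4, a partner of AMPA receptors, was higher there (41.3 ± 18.1 against 13.7 ± 9.88 RPKM, log2 1.89 ± 0.16, adjusted p = 2.6e-15).

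Facial neurons were marked by Scn11a, a sodium channel gene best known from pain-sensing neurons. It ran from 1.95 to 8.31 RPKM (median 5.43) in 13 facial control samples and from 0 to 1.94 (median 0.0206) in 59 others. The log2 difference was 2.30 ± 0.13 (limma, adjusted p = 3.73e-22). The ranges did not overlap but lay almost edge to edge, and the share of all genes with such ranges was not counted. Scn11a passed the filter in the fits of 2 populations, facial included. Of Scn11a, 3 reads amount to 0.0872 RPKM at the median depth. Facial neurons also had more Cacng5 (29.6 ± 8.98 against 19.8 ± 15.1 RPKM, log2 0.93 ± 0.15) and less Cacna2d2 (6.82 ± 1.65 against 12.7 ± 6.84, log2 -0.68 ± 0.11). Cacna1i, a T-type gene, was also lower there (median 0.0666 RPKM against 0.368 in the others, log2 -0.51 ± 0.14, adjusted p = 0.00895). Those others include red nucleus neurons, where it averaged 3.31, while over the motor populations together it averaged 0.450.

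The member that differed most in red nucleus neurons was an alpha2delta gene. Cacna2d1, whose protein binds gabapentin, ran from 21.7 to 140.5 RPKM (median 79.04, n = 11) against 1.17 to 51.5 (median 20.8, n = 61) in the motor populations (log2 2.16 ± 0.13, adjusted p = 8.38e-22), while Cacna2d3 was lower (14.4 ± 9.39 against 26.5 ± 13.4, log2 -1.04 ± 0.17). Cacna1i averaged 3.31 ± 2.06 against 0.450 ± 0.674 (log2 1.5 ± 0.15, adjusted p = 1.74e-12). Cacng5 was lower, at 6.48 ± 3.29 against 24.3 ± 14.2 (log2 -1.60 ± 0.16, adjusted p = 2.38e-12).

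Ocular neurons had less Cacna2d1 over the 3 ages together. It ran from 1.17 to 10.9 RPKM (median 6.77, n = 12) in ocular controls and from 3.32 to 140.5 (median 23.8, n = 60) elsewhere (log2 -2.08 ± 0.12, adjusted p = 1.09e-21). Those others include red nucleus neurons, where it averaged 77.2. Against lumbar neurons alone Cacna2d1 passed at days 2 and 5 and not at day 10. Ranges overlapped at day 10, with 1.17 to 5.72 in ocular and 3.32 to 6.44 in lumbar controls. Cacna2d2 was higher, at 22.1 ± 5.53 against 9.55 ± 4.54 (log2 1.19 ± 0.11, adjusted p = 5.38e-14), and so was Cacnb2 (log2 1.04 ± 0.18, adjusted p = 9.57e-06). Cacng3 was lower (6.70 ± 3.58 against 27.9 ± 12.5, log2 -1.96 ± 0.18, adjusted p = 7.23e-14). Lumbar neurons had more Scn4b (25.8 ± 26.6 against 11.3 ± 15.8, log2 1.49 ± 0.15) and less Scn9a (log2 -1.35 ± 0.19) and Scn3a (log2 -1.08 ± 0.08). Hypoglossal neurons had more Cacng5 (log2 1.19 ± 0.16) and Cacng3 (log2 0.90 ± 0.18). They had less Cacna2d2 (log2 -0.90 ± 0.11) and Cacna1i (log2 -0.66 ± 0.14), and adjusted p for these genes was between 1.2e-09 and 0.000483. Cacna1i was low in hypoglossal neurons (median 0.0460 RPKM against 0.425), and the others again include the red nucleus.

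Ocular and lumbar motor neurons, a resistant and a vulnerable population, were also compared directly in controls at each age. At day 2 members past the threshold numbered 8 of 33, 3 higher in ocular and 5 higher in lumbar neurons (6.45% of all genes). Control mice 240 and 244 were among the 4 lumbar controls of day 2, and this comparison was not fitted without both. With single mice left out, the day 2 calls for Cacnb1 and Cacng2, both lower in ocular neurons, were lost without 240 and without 244, among others. At day 5 there were 6, 3 in each direction (4.95%), and at day 10 there were 7 of 32, 5 higher in ocular and 2 in lumbar (3.83%). Cacna2d2 and Scn3a were higher in ocular neurons, and Cacng3 and Cacng5 lower, at all 3 ages. The Cacna2d2 calls were kept at each age with any 1 mouse left out. Of the others, the Scn3a call was lost at day 5 without mouse 30 and at day 10 without 253, the Cacng3 call at day 10 without 247, 252 or 254 (adjusted p up to 0.316), and the Cacng5 call at day 2 without 28 and at day 10 without 252, 253 or 254. Cacna2d2 differed by a log2 of 1.24 ± 0.24, 1.54 ± 0.23 and 1.30 ± 0.24 at days 2, 5 and 10, and Cacng3 by -2.65 ± 0.40, -1.74 ± 0.38 and -1.36 ± 0.40. At day 10 Scn9a was higher in ocular neurons (20.2 against 5.17 RPKM, log2 1.73 ± 0.44, adjusted p = 0.0101), and that call was lost without mouse 247, whose ocular value of 42.9 was far above the 10.3 to 14.5 of the other 3 mice. The day 10 count fell to 4 when mouse 247, 252 or 253 was left out.

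From day 2 to day 10 some sodium and calcium channel genes rose and others fell at the RNA level in control neurons. Scn4b, Scn2b and Scn8a rose and Cacng4, Scn9a, Scn3a, Cacnb3 and Cacna2d1 fell, each in 4 or 5 of the 6 populations. Scn3b set aside, members past the threshold numbered 9 of 28 in ocular neurons (3 higher, 6 lower, 8.02% of all genes), 11 of 31 in facial (6 and 5, 5.36%), 12 of 29 in hypoglossal (6 and 6, 5.11%), 14 of 28 in lumbar (7 and 7, 12%) and 13 of 30 in red nucleus neurons (5 and 8, 11.1%). In vagus neurons 1 of 32 passed (1.02% of all genes). The median of all members fitted, Scn3b included, changed by a log2 of -0.26, 0.03, 0.04, -0.04, -0.05 and -0.38 in ocular, facial, vagus, hypoglossal, lumbar and red nucleus neurons, beside 0.06, -0.04, -0.07, -0.03, -0.10 and -0.01 for all genes.

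**Figure D2:**
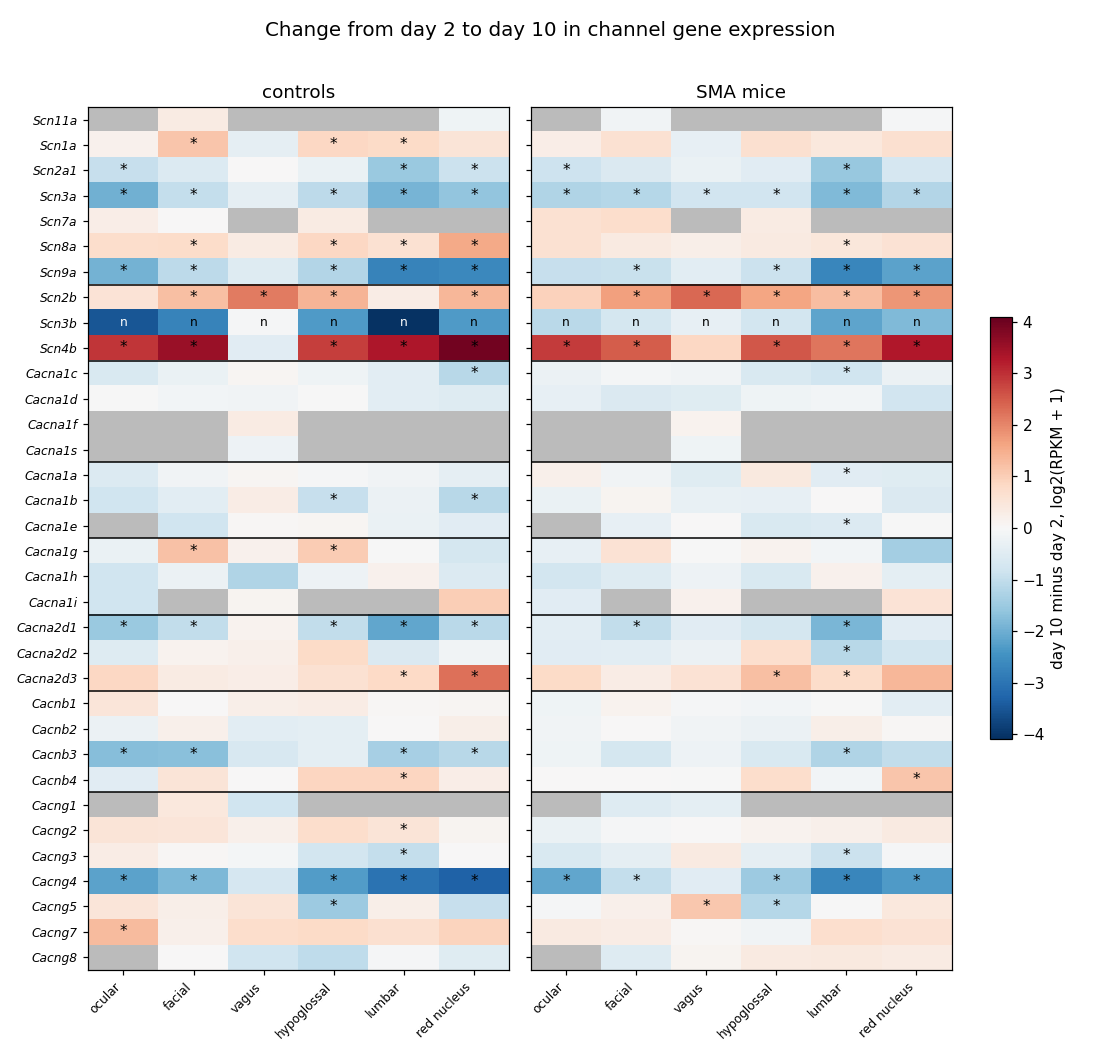
Change from day 2 to day 10 on the log2(RPKM + 1) scale for channel genes (rows) in each population (columns), in controls and in SMA mice. Red is higher and blue lower at day 10, an asterisk marks an adjusted p under 0.05, n marks Scn3b, which was not tested, and grey marks genes that did not pass the filter. In controls the 1 asterisk in the vagus column is at Scn2b.

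As the heat map of age changes shows, the largest rise was that of Scn4b. In lumbar controls it was 4.18, 4.69, 5.41 and 7.49 RPKM in the 4 mice at day 2 and 53.2, 56.8, 62.5 and 78.9 in the 4 mice at day 10. Ranges were apart there and in the 4 other populations where Scn4b rose. The share of all genes with ranges apart between day 2 and day 10 was not counted. The log2 change was 3.32 ± 0.22 in lumbar (SE; limma, adjusted p = 2.27e-11), 3.96 ± 0.36 in red nucleus, 3.55 ± 0.40 in facial, 2.92 ± 0.39 in ocular and 2.83 ± 0.34 in hypoglossal neurons. In vagus neurons it was -0.47 ± 0.41 and did not pass, with 0.0289, 0.868 and 3.81 RPKM at day 2 and between 0 and 0.862 at day 10.

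Scn2b was the gene that rose in vagus neurons. It was 55.9, 103 and 120 RPKM in the 3 mice at day 2 and 322, 334, 405 and 526 in the 4 at day 10 (log2 2.12 ± 0.30, adjusted p = 0.000519). Without control mice 240 and 244, which leaves 1 vagus mouse at day 2, the vagus call for Scn2b was lost (adjusted p up to 0.135 over the alternatives). Scn2b also rose in facial (1.25 ± 0.27), hypoglossal (1.39 ± 0.26) and red nucleus neurons (1.38 ± 0.40). The last call was lost without mouse 14, 28, 244 or 247, and without control mice 240 and 244 together (adjusted p = 0.0528).

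Scn8a, the pore of mature initial segments and nodes, rose in red nucleus neurons from 20.0 ± 1.85 to 63.0 ± 17.7 RPKM (n = 4 and 4, log2 1.56 ± 0.26, adjusted p = 0.000341). Its rise was smaller in hypoglossal (0.84 ± 0.19), facial (0.76 ± 0.21) and lumbar neurons (0.63 ± 0.17). The facial call was lost without mouse 14, 240, 253 or 254, the lumbar call without mouse 253, and all 3 without control mice 240 and 244. Scn1a rose in facial (1.14 ± 0.22), hypoglossal (0.86 ± 0.24) and lumbar neurons (0.78 ± 0.20), and without control mice 240 and 244 the latter calls were lost (adjusted p = 0.247 and 0.189).

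Among pores that fell, Scn3a dropped in 5 populations by a log2 of 0.99 to 1.97. In lumbar controls Scn3a was 12.8, 14.3, 14.8 and 18.2 RPKM at day 2 and 2.53, 2.97, 3.34 and 4.41 at day 10 (log2 -1.90 ± 0.21, adjusted p = 1.76e-07), with the ranges far apart. Scn9a, which had the largest share of sodium alpha RPKM at day 2 in every population except lumbar, fell in the same 5. Its lumbar values went from between 30.8 and 39.2 to between 1.63 and 8.29 RPKM (log2 -2.72 ± 0.38, adjusted p = 6.71e-06). The smaller Scn9a calls depended on single mice: the facial one (-1.09 ± 0.30) was lost without mouse 14, 26, 28, 247, 252 or 253, the ocular one without 244 or 254 and the hypoglossal one without 247. Without control mice 240 and 244 together the ocular and hypoglossal calls were lost (adjusted p = 0.0651 and 0.115). Scn2a1 fell in lumbar (-1.52 ± 0.16), ocular (-0.94 ± 0.20) and red nucleus neurons (-0.88 ± 0.27), the last lost without control mice 240 and 244 (adjusted p = 0.139). In vagus neurons Scn3a and Scn9a changed by -0.36 ± 0.25 and -0.53 ± 0.38 and did not pass. Scn1a, Scn2a1, Scn3a, Scn7a and Scn9a lie within a single stretch of chromosome 2, and the members of this cluster that passed moved in both directions.

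Scn3b, with control samples of day 10 that also serve in the genotype contrast that chose the group, is given here without a test. In lumbar controls Scn3b was 42.3, 45.4, 47.6 and 56.1 RPKM at day 2, 20.2, 28.3, 30.1, 30.2 and 30.3 at day 5, and 0.563, 1.16, 1.69 and 6.86 at day 10. The log2 change from day 2 to day 10 was -4.06 ± 0.32. In ocular neurons it was -3.50 ± 0.25, in facial -2.74 ± 0.25, in hypoglossal -2.34 ± 0.30 and in red nucleus neurons -2.31 ± 0.33. Ranges were apart in each, and how many of all genes had ranges apart between these ages was not counted. In vagus neurons Scn3b had a median of 104.8 RPKM at day 2 (n = 3) and 113.8 at day 10 (n = 4), and ran from 89.8 to 132.3 at day 5 (n = 4), a log2 change of -0.05 ± 0.22.

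Calcium channel genes that changed with age were mostly accessory subunits. Pore genes passed in few places: Cacna1g rose in facial (1.19 ± 0.33) and hypoglossal neurons (1.04 ± 0.23), Cacna1b fell in red nucleus (-1.14 ± 0.35) and hypoglossal neurons (-0.93 ± 0.26), and the low Cacna1c fell in red nucleus neurons (-1.14 ± 0.33). Without control mice 240 and 244 the hypoglossal Cacna1g call and both red nucleus calls were lost (adjusted p = 0.076, 0.0681 and 0.0505). Over all pairs of a gene and a population, 1 of 14 L-type, 2 of 17 P/Q-, N- and R-type and 2 of 15 T-type pairs passed. For accessory genes, 2 pairs rose and 5 fell of 18 for alpha2delta, 1 and 4 of 24 for beta, and 2 and 7 of 37 for gamma. Among sodium genes 20 of 35 alpha pairs passed, and 14 of 18 beta pairs other than Scn3b. The share of all genes that passed was between 1.02% (vagus) and 12% (lumbar). Several calcium pore genes were low, such as Cacna1c and Cacna1e (means of 0.957 and 0.874 RPKM), and there the scale understates a change. Cacna2d1 fell in 5 populations, most in lumbar neurons, from 15.5, 20.9, 23.9 and 26.9 RPKM at day 2 to 3.32, 3.62, 3.67 and 6.44 at day 10 (log2 -2.12 ± 0.23, adjusted p = 8.47e-08). Its ocular call (-1.51 ± 0.47, adjusted p = 0.047) did not hold without each of 18 of the 28 mice in turn, and the hypoglossal call was lost without mouse 26, 28, 247 or 253. Both were also lost without control mice 240 and 244 (adjusted p = 0.0709 and 0.051). Cacna2d3 rose in red nucleus (2.27 ± 0.51) and lumbar neurons (0.83 ± 0.20), so that the alpha2delta genes moved in opposite directions in these populations. The lumbar Cacna2d3 call was lost without control mice 240 and 244 (adjusted p = 0.0641).

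Cacnb3, an intracellular beta subunit gene, fell in ocular (-1.76 ± 0.27), facial (-1.72 ± 0.29), lumbar (-1.36 ± 0.26) and red nucleus neurons (-1.13 ± 0.30). The red nucleus call was lost without mouse 252, the mouse with the shallowest library. Cacnb4 rose in lumbar neurons (0.86 ± 0.27), a call lost without control mice 240 and 244 (adjusted p = 0.294). Of the gamma genes, Cacng4 fell in 5 populations. It was 25.2, 27.1, 32.0 and 33.8 RPKM in red nucleus controls at day 2 and 0.949, 2.20, 2.51 and 2.79 at day 10 (log2 -3.33 ± 0.38, adjusted p = 4.7e-06). In lumbar neurons it changed by -3.02 ± 0.30, in hypoglossal by -2.29 ± 0.44, in ocular by -2.21 ± 0.32 and in facial by -1.83 ± 0.28. Cacng5, also on chromosome 11, fell in hypoglossal neurons (54.5 ± 6.77 to 18.5 ± 1.78 RPKM, log2 -1.50 ± 0.26).

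Several of these changes coincided with more oligodendrocyte RNA in the samples. All 6 oligodendrocyte markers, among them Mbp, Mobp, Mag, Mog and Cnp, were in the table, and their summed level in controls was 16.9 to 46.9 RPKM in lumbar neurons at day 2 and 537 to 1176 at day 10. In ocular neurons the sum was 17.3 to 29.2 and then 351 to 503, in facial 24.1 to 42.5 and then 235 to 275, in hypoglossal 30.9 to 92.6 and then up to 775 with a median of 565, and in red nucleus neurons 17.5 to 26.6 and then 322 to 651. In vagus neurons it was 52.7 to 110 and then 41.4 to 86.6. Of these markers 6 rose in ocular, hypoglossal, lumbar and red nucleus neurons, 5 in facial and 0 of the 5 tested in vagus neurons. The part of oligodendrocyte RNA in the channel results was not tested.

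The pattern with age differed between vagus neurons and the others, which was tested as a contrast chosen after these values had been seen. The control change from day 2 to day 10 in vagus neurons, minus the mean of the other 5 populations, passed for 5 of 32 members, Scn3b set aside (0.979% of all genes). Scn4b had a log2 difference of -3.79 ± 0.39 (adjusted p = 5.13e-10) and Scn1a of -1.06 ± 0.25 (0.0142), both lower in vagus. Cacng4 had 1.85 ± 0.40 (0.0065), Cacna2d1 1.5 ± 0.32 (0.00466) and Scn3a 1.16 ± 0.22 (0.00134), all of them less lowered in vagus. The value for Scn3b, given without a test, was 2.94 ± 0.38. Without control mice 240 and 244 the calls for Cacna2d1 and Scn3a were lost (adjusted p = 0.177 and 0.217), without mouse 26 that for Cacng4, and without 26, 240 or 247 that for Scn1a.

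**Figure D3:**
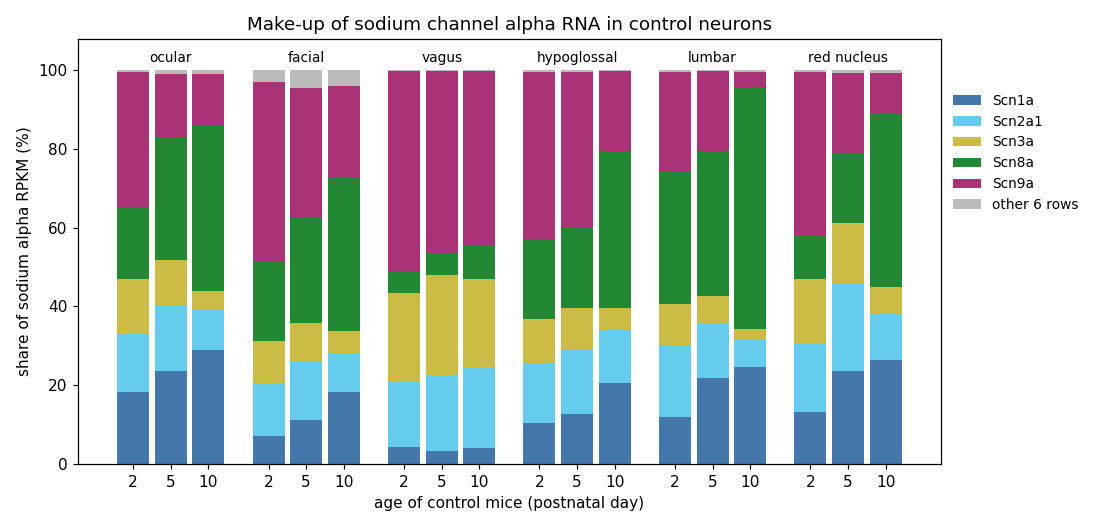
Mean share of each sodium channel alpha gene in the summed RPKM of all 11 alpha rows, in percent, for control neurons by population and age. Scn8a (green) widens and Scn9a (purple) narrows with age in 5 populations, and in vagus neurons Scn9a holds between 44.4% and 51% at every age.

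The plot of alpha subunit shares restates these changes as the make-up of the pore RNA of each sample. In lumbar controls Scn8a made up 33.8% ± 0.885 of sodium alpha RPKM at day 2 (SD, n = 4), 36.8% ± 1.45 at day 5 (n = 5) and 61.4% ± 4.28 at day 10 (n = 4). In red nucleus neurons its share went from 10.7% ± 1.56 to 43.9% ± 8.45, and in ocular neurons from 18.1% ± 6.25 to 42% ± 10.1. The vagus share went from 5.31% ± 2.19 to 8.39% ± 1.83. Exact two-sided permutation tests set day 10 against day 2, 6 in all. The rise of the Scn8a share passed in every population except vagus (exact p = 0.0286 or 0.0159, adjusted p = 0.0343). In vagus neurons the mean share was higher at day 10 too, and exact p was 0.171 for 4 mice against 3. So few mice cannot show that the vagus share held level. For 4 mice against 4 the smallest p such a test allows is 0.0286.

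The share of Scn3b among beta subunits is given without a test, as its RPKM was. It was 30.6% ± 9.89 of beta RPKM in red nucleus controls at day 2 and 2.54% ± 1.36 at day 10, and 16.3% ± 2.43 and 0.454% ± 0.492 in lumbar controls. In vagus neurons it went from 50.7% ± 9.4 to 20.6% ± 6.15, while Scn2b went from 42.2% ± 12.3 to 74.1% ± 6.74.

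SMA neurons went through much of the same change with age. Scn3b set aside, members past the threshold from day 2 to day 10 in SMA mice numbered 5 of 28 in ocular neurons (6.66% of all genes), 7 of 31 in facial (6.73%), 3 of 32 in vagus (3.31%), 8 of 29 in hypoglossal (4.31%), 16 of 28 in lumbar (18.4%) and 7 of 30 in red nucleus neurons (5.06%). These contrasts use other mice than the control contrasts. Of the members that passed in controls, all 9 in ocular, 11 in facial and 1 in vagus neurons had the same sign in SMA mice. So had all 12 in hypoglossal and 13 in red nucleus neurons, and 13 of 14 in lumbar neurons. Fewer passed in both genotypes with the same sign: 5 in ocular, 7 in facial, 1 in vagus, 7 in hypoglossal, 11 in lumbar and 6 in red nucleus neurons. Neither count, nor the correlation that follows, is set beside that of all genes. Across members the log2 changes of the 2 genotypes had a Pearson r of 0.857 in ocular (28 genes), 0.877 in facial (31), 0.683 in vagus (32), 0.87 in hypoglossal (29), 0.95 in lumbar (28) and 0.914 in red nucleus neurons (30), given as a description, since genes are not independent replicates.

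By class, the sodium beta genes other than Scn3b passed upward in 15 of 18 pairs of a gene and a population in SMA mice, with none downward. Scn4b rose by a log2 of 2.85 ± 0.34 in ocular, 2.48 ± 0.37 in facial, 2.56 ± 0.29 in hypoglossal, 2.19 ± 0.18 in lumbar and 3.29 ± 0.36 in red nucleus neurons of SMA mice. Scn3a fell in all 6 populations of SMA mice, vagus included (-0.78 ± 0.20), and Scn2b rose in 5, all except ocular. Scn8a, which rose in 4 populations of controls, passed in SMA mice in lumbar neurons (0.47 ± 0.14). Cacnb3 passed in SMA lumbar neurons (-1.23 ± 0.22).

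Markers of other cell types moved with age in SMA samples too. The 4 inhibitory neuron markers all rose in hypoglossal SMA neurons, from a sum of 2.22 to 27.75 RPKM at day 2 to 29.4 to 106.7 at day 10 (median log2 2.45), where 0 of 4 passed in controls. Oligodendrocyte markers rose in 5 SMA populations, 6 of 6 in ocular and lumbar, 5 in red nucleus and 4 in facial and hypoglossal neurons. In lumbar SMA neurons their sum was 19.4 to 123.2 RPKM at day 2 and 673 to 993 at day 10. In vagus SMA neurons it was 33.03 to 69.7 and 59.1 to 101.8, with 0 past the threshold. The part of these markers in the age results of SMA mice was not tested.

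Whether the change with age differed between genotypes was tested directly. For the members other than Scn3b no F test of the genotype difference over the 3 ages passed in any population, where 0.101% of all genes did in ocular, 0.104% in facial and 0% in the other populations. At an unadjusted p under 0.05 there were between 1 and 3 members per population, and the share of all genes at that level is not given.

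Differences between SMA and control neurons at a given age were few among the channel genes. Over 18 contrasts, with Scn3b at day 10 set aside, 1 member passed the threshold, Cacnb3 in ocular neurons at day 10, where 0.359% of all genes passed. It was 3.21, 3.69, 4.67 and 5.90 RPKM in the 4 control mice and 11.3, 14.2, 14.2, 15.9 and 16.5 in the 5 SMA mice, with ranges apart. The log2 difference was 1.54 ± 0.26 (SE; limma, adjusted p = 0.00154). Control ocular neurons had held 17.2 ± 4.18 RPKM of Cacnb3 at day 2 (n = 4), when the difference between genotypes was -0.03. The call was lost when only ocular libraries of both nuclei were used (adjusted p = 0.0502), and kept in each fit that left out 1 mouse.

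**Figure D4:**
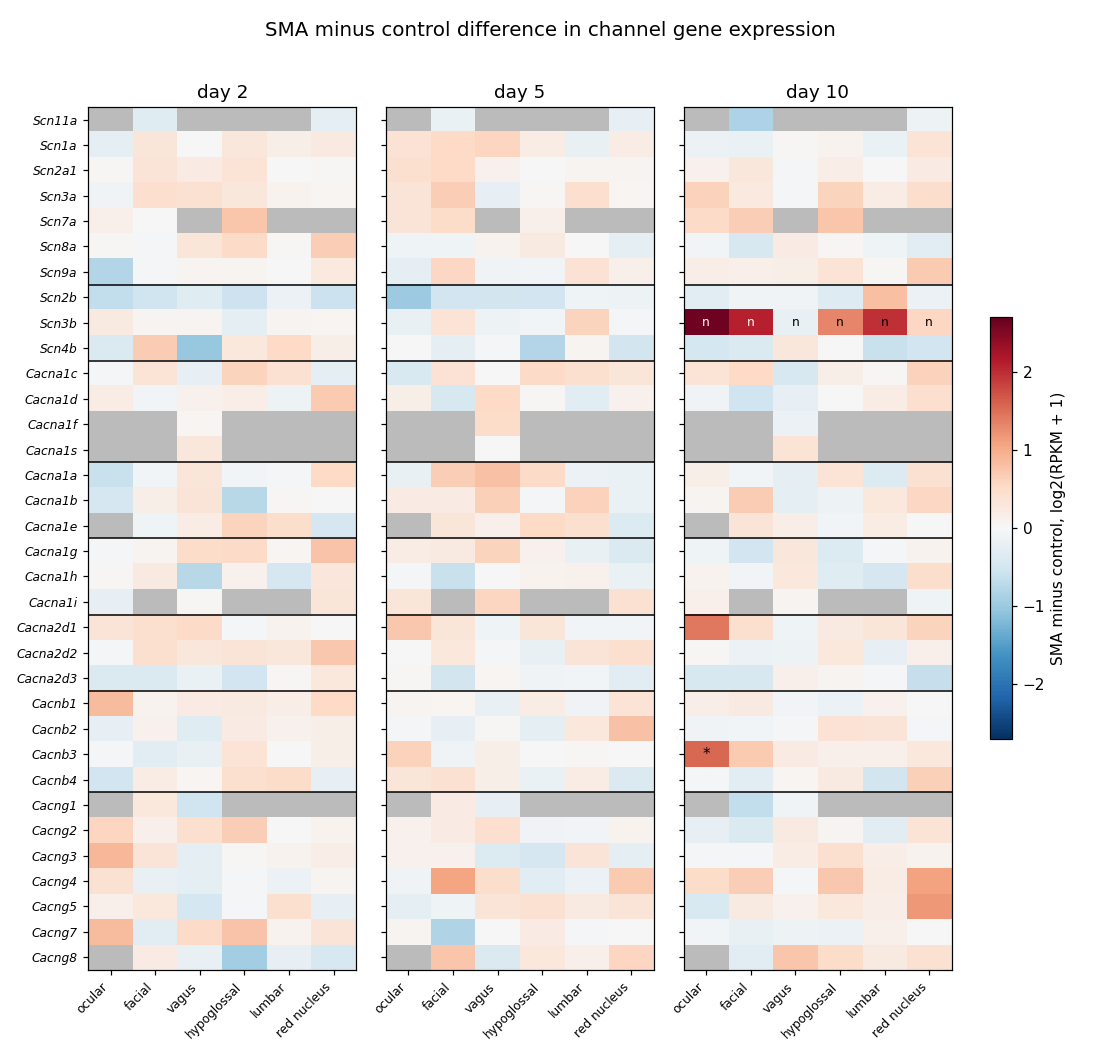
SMA minus control difference on the log2(RPKM + 1) scale for channel genes (rows) in each population (columns) at days 2, 5 and 10. The asterisk marks the call for Cacnb3 in ocular neurons, n marks Scn3b at day 10, which was not tested, and grey marks genes that did not pass the filter. The Scn3b row is pale at days 2 and 5 and dark red at day 10 in ocular, facial and lumbar neurons.

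In the plot of genotype differences most cells are pale, and in the other 17 contrasts no member passed. At day 2 the share of all genes past the threshold was 0.132% in ocular, 0.0232% in facial, 0.00599% in vagus, 0.0364% in hypoglossal, 0.0122% in lumbar and 0.0434% in red nucleus neurons. At day 5 it was 0.0252%, 0.0695%, 0.00599%, 0.00607%, 0.0488% and 0.0062% in the same order, and at day 10 it was 0.666% in facial, 0.00599% in vagus, 0.0728% in hypoglossal, 0.775% in lumbar and 0.0124% in red nucleus neurons. The median of all members fitted, Scn3b included, differed by a log2 of 0.03 in ocular, -0.07 in facial, 0.04 in vagus, 0.15 in hypoglossal, 0.11 in lumbar and 0.28 in red nucleus neurons at day 10, beside 0.06, 0.01, 0.02, 0.08, 0.05 and 0.13 for all genes. Counts at an unadjusted p under 0.05 were between 0 and 10, the 10 in hypoglossal neurons at day 2. Control mice 240 and 244 were among the 4 hypoglossal controls of that age. The share of all genes at an unadjusted p under 0.05 is not given, so these counts are not read as a result.

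Next to the threshold was Scn2b in lumbar neurons at day 10. Its control values were 110.4, 144.1, 183.3 and 226.5 RPKM and its SMA values 210.8, 254.7, 265, 319.9 and 386.1, overlapping by 1 mouse (log2 0.81 ± 0.22, adjusted p = 0.0759). Without mouse 211 the adjusted p was 0.0217 and without mouse 252 it was 0.0402. Cacna2d1 in ocular neurons at day 10 had a difference of 1.43 ± 0.45 (adjusted p = 0.345), with SMA values from 2.56 to 33.6 RPKM, and passed when each library was its own sample (adjusted p = 0.0476). Cacnb1 in ocular neurons at day 2 had 0.85 ± 0.26 (adjusted p = 0.209) and passed without mouse 28 (0.0443) or with control mice 240 and 244 alone at day 2, which in ocular neurons leaves mouse 244 (0.005).

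Scn3b encodes a beta subunit that binds the sodium channel pore without a covalent link, and it is also known as a gene that the tumour suppressor p53 can switch on. At day 2 its levels overlapped between genotypes in all 6 populations. In ocular neurons it was 28.0, 28.9, 34.96 and 35.2 RPKM in controls and between 31.3 and 45.6 (median 37.3) in 6 SMA mice. In lumbar neurons the control values given above lay within the SMA range of 39.7 to 61.2 (median 52.7, n = 7). Differences at day 2 were between -0.26 and 0.24 on the log2 scale, with adjusted p of 0.729 or more.

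At day 5 the difference was between -0.19 and 0.60. Lumbar neurons had the largest: their SMA values of 34.4, 38.6, 42.2, 48.7 and 48.8 RPKM all lay above the control values of 20.2 to 30.3. The log2 difference was 0.60 ± 0.28, which did not pass (adjusted p = 0.592). The share of all genes with ranges apart at day 5 was not counted. Per the labels, the 5 lumbar control libraries of day 5 each pool reads of an earlier deposit with new ones. The part of this in the difference was not tested.

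**Figure D5:**
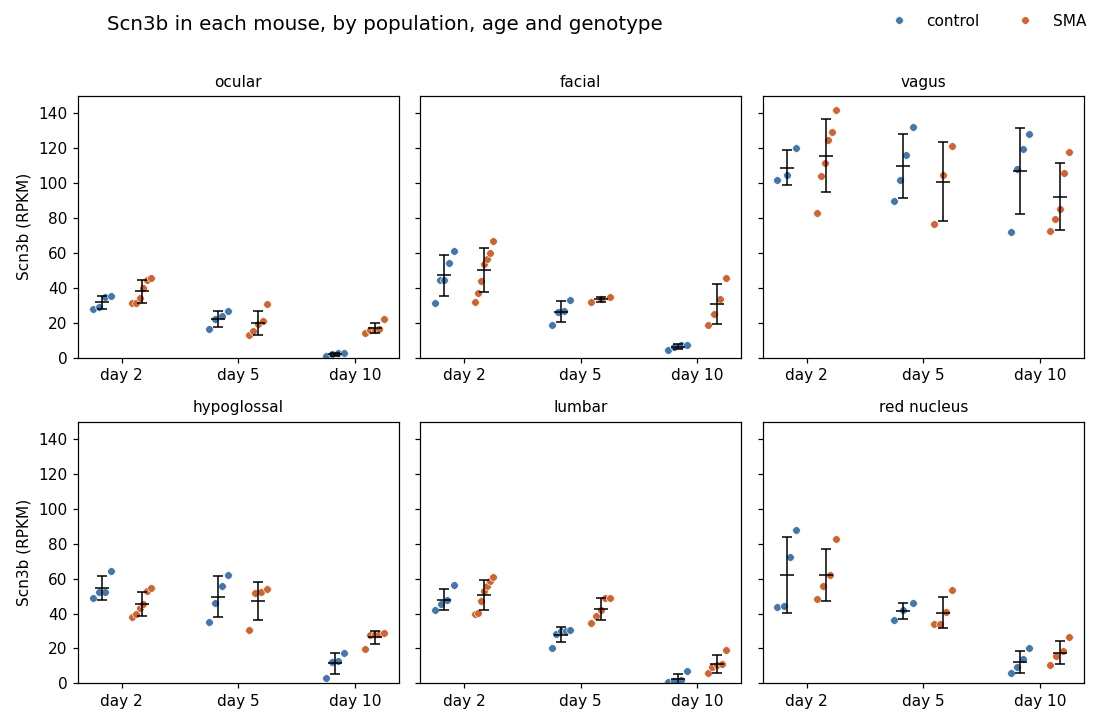
Scn3b in RPKM in each mouse (points), by population, age and genotype, with the mean and SD of each group in black. Control points sink toward 0 by day 10 in every population except vagus, and SMA points at day 10 lie above them in ocular, facial and hypoglossal neurons without overlap.

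At day 10, in the contrast that drew attention to the gene, ocular neurons had 0.751, 2.02, 2.43 and 2.85 RPKM of Scn3b in controls and 14.3, 15.7, 16.1, 16.6 and 22.2 in SMA mice. Facial neurons had 4.14, 6.14, 7.17 and 7.18 in controls and 18.8, 25.1, 33.5 and 45.8 in SMA mice. Hypoglossal neurons had 3.10, 12.5, 12.9 and 17.6 in controls and 19.6, 27.6, 28.1, 28.3 and 28.7 in SMA mice. The plot of Scn3b by mouse shows no overlap between genotypes in these 3 populations. Among all genes, ranges were apart with SMA higher in 2.32% in ocular, 3.32% in facial and 1.86% in hypoglossal neurons.

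Lumbar neurons at day 10 had 0.563, 1.16, 1.69 and 6.86 RPKM of Scn3b in controls and 5.73, 9.42, 10.5, 11.02 and 19.4 in SMA mice, so that 1 control mouse lay inside the SMA range. Red nucleus neurons overlapped (5.74 to 20.1 in controls and 10.3 to 26.4 in SMA mice), and so did vagus neurons (lowest 72.2, median 113.8 and highest 128.2 in controls, lowest 72.8 and median 85.2 in SMA mice). Ranges were apart with SMA higher in 2.76% of all genes in lumbar, 3.56% in red nucleus and 0.569% in vagus neurons. The SMA minus control difference, given without a test, was 2.62 ± 0.24 on the log2 scale (SE) in ocular, 2.10 ± 0.27 in facial, 1.98 ± 0.30 in lumbar, 1.31 ± 0.29 in hypoglossal, 0.55 ± 0.33 in red nucleus and -0.20 ± 0.20 in vagus neurons. Whether the populations differ from each other in this was not tested. Over the alternative settings the ocular value ran from 2.38 to 3.14, the facial from 1.89 to 2.31, the lumbar from 1.68 to 2.55, the hypoglossal from 0.84 to 1.57, the red nucleus from 0.27 to 0.82 and the vagus from -0.38 to -0.11.

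Set beside its course in controls, the day 10 level of Scn3b was intermediate in ocular, facial, hypoglossal and lumbar SMA neurons. In ocular neurons the SMA mean of 17.0 ± 3.04 RPKM (n = 5) lay between the control means of 31.8 ± 3.82 at day 2 and 2.01 ± 0.906 at day 10 (n = 4 each), and below the control mean of day 5, 22.2 ± 4.42 (n = 4). In facial neurons the SMA mean of 30.8 ± 11.7 (n = 4) lay near the control mean of day 5, 26.3 ± 6.03 (n = 4). In hypoglossal neurons the SMA mean was 26.4 ± 3.83 (n = 5) and in lumbar neurons 11.2 ± 5.00 (n = 5), both below the day 5 control means of 49.6 ± 11.8 (n = 4) and 27.8 ± 4.35 (n = 5). From day 2 to day 10 within SMA mice the log2 change of Scn3b was -1.11 ± 0.22 in ocular, -0.71 ± 0.24 in facial, -0.77 ± 0.26 in hypoglossal, -2.16 ± 0.26 in lumbar and -1.80 ± 0.33 in red nucleus neurons. In vagus neurons, where controls held a high level at every age, the SMA value was -0.33 ± 0.18.

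The make-up of some samples also differed between genotypes at day 10. Of the 5 motor neuron markers 4 were in the table, and their summed level in ocular neurons was 452 to 875 RPKM in SMA mice and 926 to 1024 in controls, with 0 of 4 past the threshold. In hypoglossal neurons the sums were 899 to 1399 and 1245 to 1479, in lumbar 1282 to 1462 and 1201 to 1799, and in facial neurons 1617 to 1838 and 1468 to 1788. The 5 astrocyte markers summed to 38.6 to 64.5 in facial neurons of SMA mice and 18.7 to 34.2 in controls, with 1 of 5 past the threshold. No marker of either list was at 0 throughout these groups. The 2 red nucleus markers summed to between 9.07 and 176.9 RPKM in ocular neurons of SMA mice and 4.74 to 16.9 in controls (median log2 1.65, 0 of 2 past the threshold). The highest sum, 176.9, was in SMA mouse 250, which also had the highest ocular Cacna2d1, 33.6 RPKM. In hypoglossal neurons the same markers summed to 17.7 to 27.0 in SMA mice and 3.46 to 13.1 in controls, and the 4 inhibitory neuron markers to 29.4 to 106.7 and 2.61 to 58.1, with 0 of either list past the threshold. The 6 oligodendrocyte markers overlapped between genotypes in every population, with 0 past the threshold. The part of these differences in the Scn3b, Cacnb3 and Cacna2d1 results was not tested.

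Genes whose proteins bind or anchor these channels were counted in the same way. Of a list of 30 partners 27 or 28 passed the filter in each population, and 0 passed the threshold in any of the 18 SMA against control contrasts. At an unadjusted p under 0.05 there were between 0 and 4 per contrast, again without the share of all genes. From day 2 to day 10 in controls 5 of 28 passed in ocular, 6 of 27 in facial, 0 of 28 in vagus, 5 of 27 in hypoglossal, 10 of 27 in lumbar and 9 of 27 in red nucleus neurons, against the shares of all genes given above. Fgf11, a member of the intracellular factors that bind sodium channel tails, rose in 5 populations, most in hypoglossal neurons (22.3 to 63.96 RPKM, log2 1.45 ± 0.24, adjusted p = 0.000352). Nfasc, which holds channels at initial segments and nodes, also rose in 5, by 0.69 to 0.98; it was picked after its values were seen, and oligodendrocytes make it too.

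Among regulators of calcium channels, the small GTPase gene Rem2 rose in facial neurons (log2 1.51 ± 0.46, adjusted p just under the threshold) and Gem in lumbar neurons (1.38 ± 0.25, adjusted p = 0.000274). Stac, an adaptor of L-type channels, fell in hypoglossal (16.9 to 0.990 RPKM, log2 -3.09 ± 0.53, adjusted p = 0.000559) and lumbar neurons (-1.78 ± 0.39), and in red nucleus neurons from 5.95 RPKM to a value listed at 0 in every control of day 10. Cachd1, related to the alpha2delta genes, fell in facial (-1.55 ± 0.25) and lumbar neurons (-1.51 ± 0.36). Unc79, a subunit gene of the sodium leak channel complex, fell in red nucleus neurons (-1.38 ± 0.38). None of these partners passed in vagus neurons.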

How the data were processed

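Expression was measured by Smart-seq2 in laser-captured neurons, 168 libraries in all. The authors' deposited values are RPKM per gene, 1 table for the whole series. Per the submitters' processing notes, STAR 2.4.1c and the builds mm10 and hg19 were used. The counter and the annotation are not given in the sources used here. Reads and depth were recovered from the steps of the RPKM values (0.342 to 16.3 M reads per library), and intervals and floors of 3 reads cover counting error only.

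Libraries of 1 mouse and population were averaged, so that the mouse is the replicate. log2(RPKM + 1) was fitted with limma 3.58.1 (lmFit, eBayes with trend) in R 4.3.3, with 1 fit of 6 groups per population and 1 fit of all control groups, over genes with at least 1 RPKM in as many samples as the smallest group. In the control fit several samples come from 1 mouse and were treated as independent, and the fit with mouse as a block is in the closing section. P-values were adjusted by Benjamini-Hochberg over all genes of a contrast, with a threshold of 0.05. On simulated data for lumbar neurons at day 10, the fit recovered 65 of 100 genes changed by a log2 of 1 and 97 of 100 changed by 2. It made 9 false calls among the unchanged ones of 16382 genes. The noise was drawn as independent and normal. The changed genes were drawn from those of higher mean level, so recovery of low members was not examined. Shares were tested by exact permutation in scipy 1.17.1.

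The members and gene lists were chosen with earlier results of these data known. Scn3b was left out of every test that uses samples of day 10, a choice that for controls was made after its values were seen. Genes named are Scn3b in every group, members past the threshold in a genotype contrast, those past it with age in 4 or more populations in 1 direction (up to 6 per direction), up to 2 per direction for each population, the highest of each role, all rows that passed no filter, and up to 3 partners per direction. Some genes that this rule names are not reported here, though they remain in the fits and counts. Others are named where a count or an alternative turns on them and were picked after their values were seen. Mouse numbers mark the same animal across populations. Deviations from the group means correlated with a median of 0.0296 over 150 pairs of samples of the same mouse and -0.00708 over 568 pairs of different mice.

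Alternatives were a pseudocount of 0.1, no filter, quantile normalization, each library as its own sample, and fits of the 2 groups compared. Others left out shallow libraries, ocular libraries of a single nucleus, control mice 240 and 244, or each mouse in turn. Fits without both mice 240 and 244 cover the age change of controls, the day 2 genotype contrasts and the vagus age contrast only.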

Additional observations from a re-analysis of the deposited data

Results flagged for a closer look

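Single mice stood apart from the rest of their group in 13 of 135 groups of 4 to 7 mice examined, where chance gives about 1 in 20. Of these, 4 were Scn3b values. In ocular SMA neurons at day 10 mouse 199 had 22.2 RPKM and the others 14.3 to 16.6. In hypoglossal SMA neurons mouse 31 had 30.8 at day 5 (others 51.7 to 54.0) and mouse 249 had 19.6 at day 10 (others 27.6 to 28.7). In lumbar controls at day 5 mouse 75 had 20.2 and the others 28.3 to 30.3.

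Control mouse 247 at day 10 accounted for 4 of the other values. It had 429 RPKM of Scn2b in red nucleus neurons (others 157.1 to 195.1), 36.6 of Scn8a there (others 70.5 to 73.3), 42.9 of Scn9a in ocular neurons (others 10.3 to 14.5) and 3.31 of Cacnb3 in lumbar neurons (others 8.09 to 8.52). Control mouse 28 at day 2 had 1.99 of Scn4b in ocular neurons (others 4.64 to 4.84) and 23.7 of Cacng4 in hypoglossal neurons (others 21.4 to 21.8). Scn3a was 24.6 in facial neurons of control mouse 14 at day 2 (others 15.6 to 18.0) and 5.68 in hypoglossal neurons of control mouse 254 at day 10 (others 7.98 to 8.29). Cacna2d1 was 6.44 in lumbar neurons of control mouse 253 at day 10, against 3.32 to 3.66 in the others.

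The change of control neurons from day 2 to day 10 differed between vagus neurons and the mean of the other 5 populations for 5 members. The limma contrast is the one given in the report, chosen after the values had been seen. Each call except that for Scn4b was lost in some alternative, as given there. The log2 differences were -3.79 for Scn4b, -1.06 for Scn1a, 1.16 for Scn3a, 1.5 for Cacna2d1 and 1.85 for Cacng4.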

How the results depend on the processing

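None of the named results changed direction under any alternative tried. Of 92 named results past the threshold, 70 stayed past it under every alternative other than leaving out a mouse, 69 with each mouse left out in turn, and 56 under both. For SMA against control the count of members past the threshold was 1, and it was 2 with each library as its own sample, 2 with only control mice 240 and 244 at day 2, 0 with only ocular libraries of both nuclei, and 1 to 2 with a mouse left out. For day 10 against day 2 in controls the 60 calls became 36 when a fit held just the 2 groups, 41 without control mice 240 and 244, and 47 to 61 with a mouse left out. In single populations that count went from 9 to 5 in ocular neurons with only libraries of both nuclei, from 11 to 6 in facial neurons with only mice 240 and 244 at day 2, from 12 to 5 in hypoglossal neurons with 2 groups in the fit and to 7 without mice 240 and 244, from 14 to 9 in lumbar neurons without these 2 mice, and from 13 to 5 in red nucleus neurons with 2 groups and to 7 with only mice 240 and 244. In vagus neurons the 1 call was lost with 2 groups in the fit and without mice 240 and 244. In SMA mice the 46 calls with age were 38 to 48 with a mouse left out. The vagus count went from 3 to 1 without mouse 250 or 258, and the hypoglossal from 8 to 5 without mouse 250. The fits of 2 groups hold fewer samples. The cause of the other shifts was not tested. With mouse as a replicate block, the 90 calls between populations became 93, the 21 between ocular and lumbar neurons 23, and the 5 of the vagus comparison stayed 5. That 5 became 3 without control mice 240 and 244, and 3 to 5 with a mouse left out. The shallowest library, of red nucleus neurons of control mouse 252 at day 10, held 0.342 M reads, so that 3 reads of Scn4b there amount to 1.78 RPKM.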
